A study of Mus musculus with 4 samples.

Results

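The genes described here are 10 that mark T cells and cytotoxic lymphocytes, namely Cd2, Cd3d, Cd3e, Cd3g, Cd4, Cd8a, Cd8b1, Gzma, Gzmb and Nkg7. They were taken by symbol from a table of 18674 gene names, and all 10 were listed. The lumbar spinal cords came from wild type (WT) and G93A mice, each given vehicle or SD, and their RNA was sequenced as 4 libraries with 1 per condition. SD is spermidine, a natural polyamine. G93A mice carry a human SOD1 transgene with a mutation of familial amyotrophic lateral sclerosis (ALS). They came from the high-expresser strain, bred with B6/SJLF1 females, and the treatment studies used males. By the labels, SD or PBS was given for 30 days, 4 times per week. By the methods, the mice for sequencing were 100 days old, and SD was injected into the peritoneum at 5 mg/kg in the treatment studies. The number of mice behind a library is not stated in the sources used here. No difference below has a replicate check, so p-values were not computed. Values of a gene are written in pairs, the WT pair and the G93A pair, each with vehicle first and SD second.

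T cells recognise peptides on MHC molecules through the T cell receptor, which signals through the CD3 chains. CD4 and CD8 are the coreceptors that bind MHC class II and MHC class I, and CD4+ and CD8+ T cells are the helper and cytotoxic lineages. Cytotoxic T cells and natural killer (NK) cells kill by releasing granules that hold perforin and granzymes. T cells are scarce in the healthy spinal cord, and CD4+ and CD8+ T cells are known to enter the cord of mutant SOD1 mice as disease advances.

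Levels are in RPKM (reads corrected for transcript length and library size), a unit inferred from the values. Summed RPKM was between 376852 and 393328 per library, and 806 to 1061 gene names were listed at 0. Depth is not given, but low values multiplied by transcript length pile up at a step that differs slightly between libraries. Taking that step as 1 sequenced fragment, the estimated depth was 36800000 and 38300000 fragments for the WT pair and 38000000 and 38600000 for the G93A pair. Fragments per gene below are estimates of this kind and carry no interval. The tissue label was checked on defining genes of the cord, and Mbp, Gfap, Snap25 and Chat were all above 0 in every library. Chat, the enzyme that makes acetylcholine in motor neurons, had 9.83 and 8.57 RPKM in the WT pair and 6.55 and 4.33 RPKM in the G93A pair.

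All 10 genes lay near the lower limit of what these libraries can show. Their means over the 4 libraries ran from 0.00941 RPKM for Gzmb to 0.135 RPKM for Nkg7, between the 5.20th and the 17.0th percentile of all gene names. No gene had more than 9.64 estimated fragments in any library, the value of Nkg7 in G93A + SD, and over all 4 libraries the genes had between 2.03 and 18.3 estimated fragments each. Summed over the 10 genes, the level was 0.140 and 0.405 RPKM in the WT pair and 0.616 and 0.959 RPKM in the G93A pair. The sum was therefore lowest in WT vehicle and highest in G93A + SD, and both G93A libraries were above both WT libraries. In the same order the sum stood for 8.56, 21.5, 30.2 and 50.8 estimated fragments. The number of the 10 genes above 0 was 6 and 8 in the WT pair and 9 and 9 in the G93A pair. G93A + SD held the highest value of 7 genes, and each of the other libraries held the highest value of 1 gene. In bulk tissue, fewer cells of a type and less RNA per cell cannot be told apart.

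**Figure D1:**
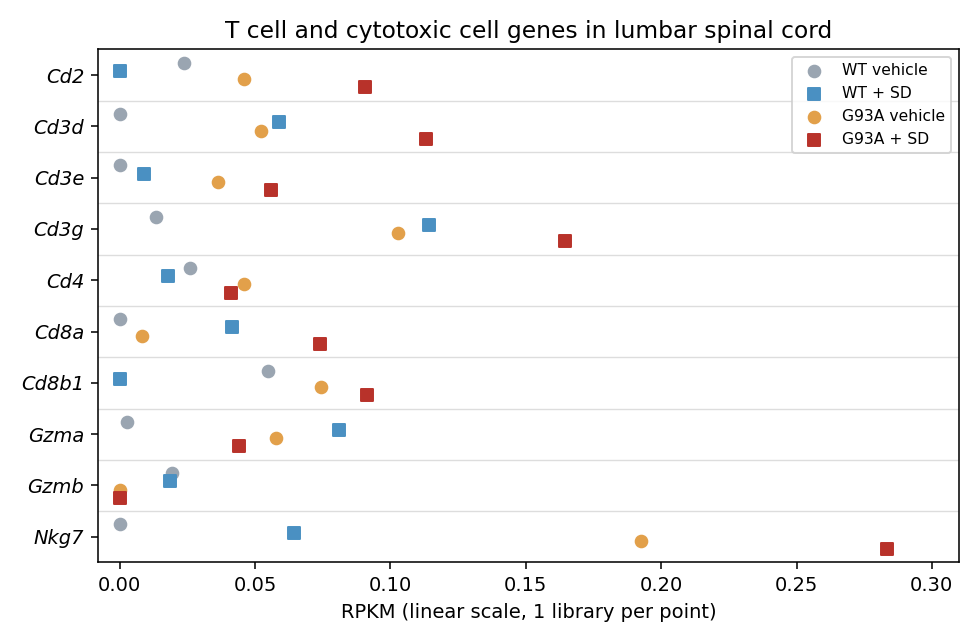
RPKM of each of the 10 genes (rows) in the 4 libraries, on a linear axis with 1 point per library. WT vehicle is at 0 for Cd3d, Cd3e, Cd8a and Nkg7, and the highest point is Nkg7 in G93A + SD at 0.283 RPKM.

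The CD3 chains are the signalling part of the T cell receptor complex and define T cells. Cd3d, Cd3e and Cd3g encode the delta, epsilon and gamma chains and lie side by side on chromosome 9 of GRCm38. By GENCODE M21, Cd3g is at chr9:44969572-44980431 on the minus strand with 7 exons in its listed transcript. Cd3d is at chr9:44981786-44987339 on the plus strand with 5 exons, and the start sites of these neighbours are 1355 bases apart. Cd3e is at chr9:44998740-45009627 on the minus strand with 8 exons.

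Cd3g had the highest level of the CD3 chains in every library, with 0.0133 and 0.114 RPKM in the WT pair and 0.103 and 0.165 RPKM in the G93A pair. WT vehicle stood apart as low with 0.5 estimated fragments, against 4.48, 4.00 and 6.50 in the others. Under vehicle, Cd3g was 7.75-fold higher in G93A, but WT + SD was 8.62-fold above WT vehicle as well, so that the genotypes overlapped. Cd3d had 0 and 0.0590 RPKM in the WT pair and 0.0524 and 0.113 RPKM in the G93A pair. Again WT + SD and G93A vehicle were close, with 3.65 and 3.22 estimated fragments, and G93A + SD was 2.16-fold above G93A vehicle. Cd3e had 0 and 0.00910 RPKM in the WT pair and 0.0363 and 0.0559 RPKM in the G93A pair. Here both G93A libraries were above both WT libraries, with 2.02 and 3.16 estimated fragments against 0 and 0.509. The 3 chains together had 0.5 and 8.63 estimated fragments in the WT pair and 9.24 and 16.7 in the G93A pair. The antisense gene Gm48719 shares 135 exonic bases with Cd3e on the opposite strand, and whether reads were counted by strand is not stated.

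Cd2, an adhesion receptor of T and NK cells, lies at chr3:101275899-101287939 on the minus strand with 5 exons. It had 0.0237 and 0 RPKM in the WT pair and 0.0460 and 0.0904 RPKM in the G93A pair. These values stand for 1.01, 0, 2.02 and 4.03 estimated fragments, and both G93A libraries were above both WT libraries. Under vehicle Cd2 was 1.94-fold higher in G93A, and within G93A it was 1.97-fold higher with SD.

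The coreceptor genes differed from each other in their order. Cd4, which is also found in some myeloid cells, lies at chr6:124864692-124888221 on the minus strand with 10 exons. It had 0.0259 and 0.0178 RPKM in the WT pair and 0.0458 and 0.0412 RPKM in the G93A pair, or 2.96, 2.12, 5.41 and 4.94 estimated fragments. Both G93A libraries were above both WT libraries, by 1.77-fold under vehicle and 2.32-fold under SD, and SD and vehicle lay within 1.5-fold of each other in either genotype. Cd8a, the alpha chain of CD8, is at chr6:71373427-71379173 on the plus strand, and its 2 listed transcripts with 5 and 4 exons had nearly the same values. Cd8a had 0 and 0.0416 RPKM in the WT pair and 0.00845 and 0.0742 RPKM in the G93A pair. Both SD libraries were thus above both vehicle libraries, with 4.86 and 8.74 estimated fragments against 0 and 0.980. Within G93A, Cd8a was 8.78-fold higher with SD, and the lower of these values rests on about 1 fragment. Cd8b1, the beta chain, lies 35933 bases away at chr6:71322788-71337494 on the plus strand with 6 exons. It had 0.0547 and 0 RPKM in the WT pair and 0.0743 and 0.0914 RPKM in the G93A pair, or 2.99, 0, 4.19 and 5.24 estimated fragments. The chains of the same receptor therefore differed in the WT libraries, where Cd8a was at 0 in WT vehicle and Cd8b1 was at 0 in WT + SD. Of the 53-base windows of the Cd8b1 transcript, 5.66% match other genes too, which leaves its level uncertain.

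Among the cytotoxic genes, Nkg7 and the granzymes went different ways. Nkg7 encodes a membrane protein of cytotoxic granules and lies at chr7:43437073-43438249 on the plus strand with 4 exons. It had 0 and 0.0643 RPKM in the WT pair and 0.193 and 0.283 RPKM in the G93A pair. Both G93A libraries were above both WT libraries, with 6.45 and 9.64 estimated fragments against 0 and 2.17. Nkg7 alone made up 31.2% of the summed RPKM of the 10 genes in G93A vehicle and 29.6% in G93A + SD. Gzma, which encodes the tryptase granzyme A, lies at chr13:113093825-113100981 on the minus strand with 5 exons. It had 0.00286 and 0.0809 RPKM in the WT pair and 0.0576 and 0.0442 RPKM in the G93A pair, so that WT + SD was highest. The WT vehicle value corresponds to 0.0926 of a fragment, and the 20.1-fold difference between the vehicle libraries is a ratio to that value. Gzmb, the granzyme that cuts caspases, lies at chr14:56258838-56262260 on the minus strand with 5 exons. It had 0.0192 and 0.0185 RPKM in the WT pair, each about 1 fragment, and was listed at 0 in both G93A libraries. Gzmb was the only one of the 10 genes whose values in both G93A libraries were below those in both WT libraries.

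**Figure D2:**
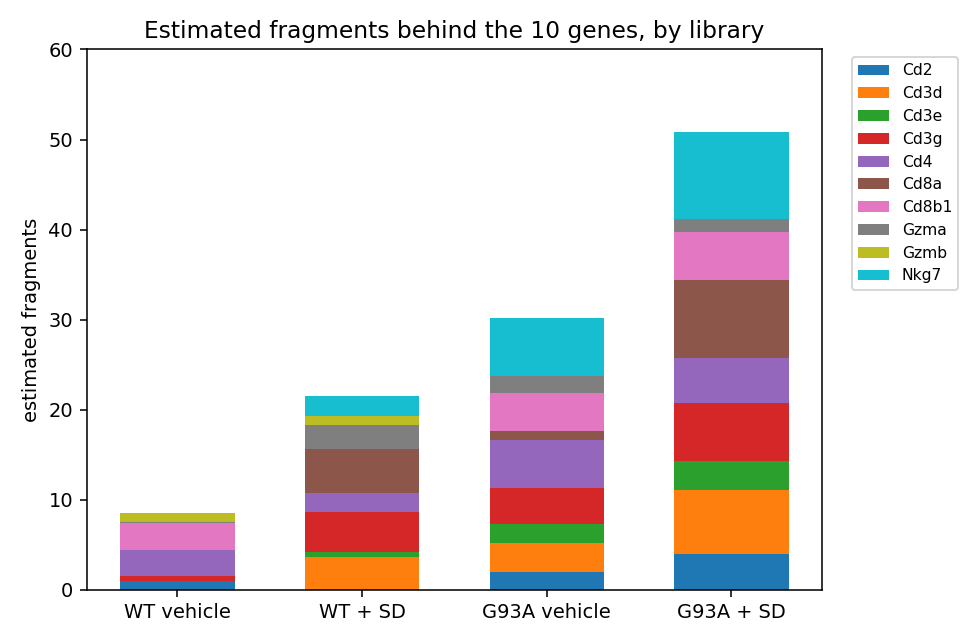
Estimated fragments of the 10 genes stacked for each library, with 1 colour per gene. The stacks reach 8.56 and 21.5 for WT and 30.2 and 50.8 for G93A, vehicle first, and Nkg7 forms the largest part of both G93A stacks.

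The sequences before the start sites are shown for Cd3g, Cd8a, Gzma and Gzmb, which had the different library orders given above. They are the 250 bases upstream of the RefSeq start on GRCm38.p6, read 5′ to 3′ on the strand of the gene. Capitals mark the letters TGTGGT, the core bound by RUNX factors, on either strand (ACCACA on the other). The letters AGGAAG, a core of ETS factors (CTTCCT on the other strand), were also searched. Both factor families are active in T cells and NK cells.
Cd3g, chr9:44980432-44980681, minus strand: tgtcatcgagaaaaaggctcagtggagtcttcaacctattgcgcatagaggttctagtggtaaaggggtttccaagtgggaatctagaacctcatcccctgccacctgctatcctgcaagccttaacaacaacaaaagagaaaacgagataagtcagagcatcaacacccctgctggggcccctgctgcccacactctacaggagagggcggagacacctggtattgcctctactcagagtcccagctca
Cd8a, chr6:71373177-71373426, plus strand: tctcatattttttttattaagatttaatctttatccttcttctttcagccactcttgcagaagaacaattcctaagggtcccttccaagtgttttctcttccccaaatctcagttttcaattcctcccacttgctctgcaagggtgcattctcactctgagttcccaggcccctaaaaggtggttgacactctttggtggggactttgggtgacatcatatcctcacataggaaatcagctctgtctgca
Gzma, chr13:113100982-113101231, minus strand: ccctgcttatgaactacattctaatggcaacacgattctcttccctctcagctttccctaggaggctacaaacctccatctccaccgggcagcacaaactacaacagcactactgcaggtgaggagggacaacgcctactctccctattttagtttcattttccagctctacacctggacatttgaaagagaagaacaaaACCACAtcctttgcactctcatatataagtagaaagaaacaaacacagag
Gzmb, chr14:56262335-56262584, minus strand: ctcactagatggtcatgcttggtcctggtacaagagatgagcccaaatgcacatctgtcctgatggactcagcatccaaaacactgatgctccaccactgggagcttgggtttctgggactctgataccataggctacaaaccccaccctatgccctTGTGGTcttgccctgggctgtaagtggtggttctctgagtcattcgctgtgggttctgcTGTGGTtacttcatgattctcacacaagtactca
The Gzma window holds 1 RUNX core, which begins 50 bases before the start, and the Gzmb window holds 2, which begin 93 and 34 bases before it. The Cd3g and Cd8a windows hold neither motif. The RefSeq start of Gzmb, at base 56262334, lies upstream of the GENCODE start given above, at base 56262260, and these distances are counted from the RefSeq start. RefSeq windows were matched for 7 of the 10 genes. Of these, Gzma, Gzmb and Nkg7 (3 genes) held the RUNX core and Cd3d, Cd3e and Nkg7 (3 genes) the ETS core. Among 32851 RefSeq windows of the same length, 14.0% held the RUNX core and 29.5% the ETS core. These matches describe letters only, and no binding was measured in the table.

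The comparison of G93A with WT under vehicle addresses how the disease model differs from the wild type cord. Of the 10 genes, 8 were higher by at least 1.5-fold in G93A, namely Cd2, Cd3d, Cd3e, Cd3g, Cd4, Cd8a, Gzma and Nkg7, where 20.3% of all gene names were. Gzmb alone was at least 1.5-fold lower, against 10.3% of all names, and Cd8b1 was within 1.5-fold. In 4 of the 8 genes WT vehicle was at 0, and a gene above 0 in only 1 of the libraries counts as past the threshold. Low genes pass the threshold more often than others. Among the 2208 names whose mean lies in the range of these 10 genes, 39.5% were higher and 29.8% lower in G93A vehicle, a comparison added after seeing the data. After adding a pseudocount of 0.1 RPKM, the 10 genes included 4 higher and 0 lower, against 14.4% and 5.31% of all names. The median log2 difference of the 10 genes, with the same pseudocount, was 0.34, against 0.046 over all names. Summed RPKM was 4.41-fold higher in G93A vehicle, and 3.03-fold higher without Nkg7.

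Between the SD libraries, 7 of the 10 genes were higher in G93A by at least 1.5-fold, against 23.2% of all names and 41.7% of names in the same range of means. Gzma and Gzmb were lower, against 12.5% of all names and 29.2% in the same range, and Cd3g was within 1.5-fold. With the pseudocount, 3 of the 10 were higher and 0 lower, against 17.1% and 7.82% of all names. The median log2 difference was 0.36, against 0.050 over all names, and summed RPKM was 2.36-fold higher. The genotype comparisons use different libraries, and 6 genes passed in both, namely Cd2, Cd3d, Cd3e, Cd4, Cd8a and Nkg7, against 14.9% of all names and 22.3% of names in the same range. For Cd2, Cd3e, Cd4 and Nkg7 (4 genes) the lower G93A value was at least 1.5 times the higher WT value, which held for 13.1% of all names and 17.3% of names in the same range. Adding Cd8b1, 5 genes had both G93A libraries above both WT libraries by any amount, as did 39.7% of all names and 26.2% of names in the same range.

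The SD comparisons address spermidine treatment in each genotype. In WT mice, 6 of the 10 genes were higher with SD by at least 1.5-fold (Cd3d, Cd3e, Cd3g, Cd8a, Gzma and Nkg7), against 7.18% of all names and 30.2% of names in the same range of means. Cd2 and Cd8b1 were lower, with WT + SD at 0, against 8.55% of all names and 34.5% in the same range. With the pseudocount, 4 of the 10 were higher and 1 lower, against 2.25% and 2.8% of all names. The median log2 difference was 0.31, against 0.0044 over all names, and summed RPKM was 2.90-fold higher. WT vehicle was at 0 for 4 of the 6 higher genes. In G93A mice, 5 of the 10 genes were higher with SD by at least 1.5-fold (Cd2, Cd3d, Cd3e, Cd3g and Cd8a), against 8.71% of all names and 33.7% in the same range. At 2-fold the count was 2, and with a pseudocount of 0.1 RPKM it was 1, against 5.45% and 2.97% of all names. No gene of the 10 was at least 1.5-fold lower, against 7.31% of all names and 29.4% in the same range. The median log2 difference was 0.29, against 0.0068 over all names, and summed RPKM was 1.56-fold higher. WT vehicle and G93A vehicle each serve in 2 of these comparisons, as do the SD libraries, so that the comparisons are not independent of each other. None of the genes had 10 or more estimated fragments over the vehicle libraries combined, or over the WT libraries combined.

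**Figure D3:**
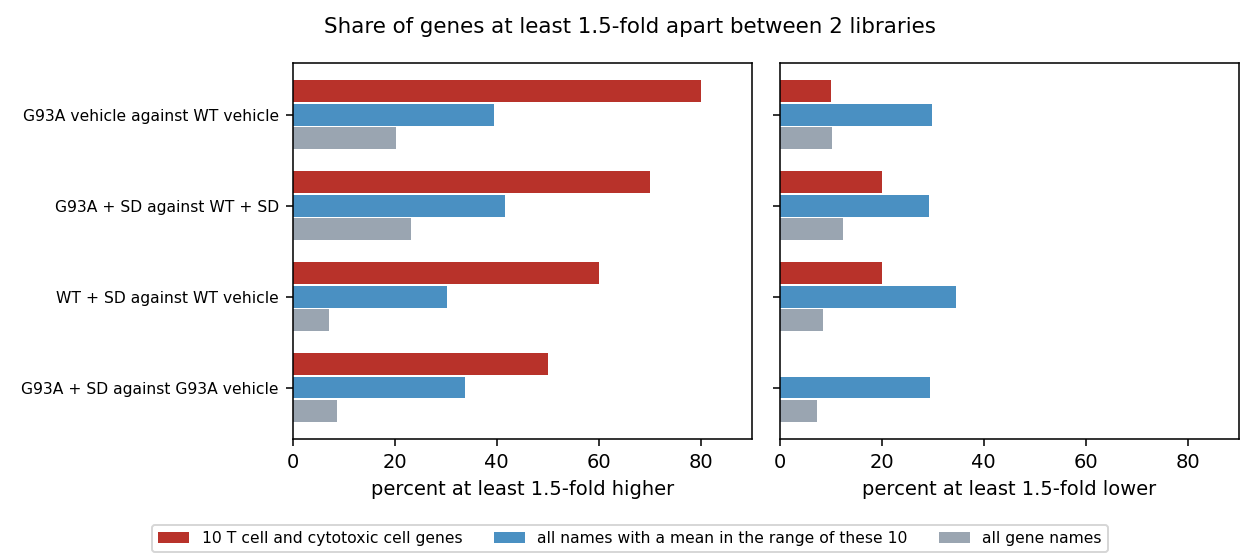
Percent of genes at least 1.5-fold higher (left) or lower (right) in each of the 4 comparisons, for the 10 genes, for the 2208 names with a mean in their range and for all 18674 names. The higher share of the 10 genes is above both others in each comparison, while the low names as a group are higher in 30.2% to 41.7% and lower in 29.2% to 34.5%.

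Other genes of the T cell receptor pathway were described from a list of 28 genes, all in the table. Under vehicle 16 of the 28 were higher in G93A by at least 1.5-fold and 4 were lower, against 20.3% and 10.3% of all names. Under SD 16 were higher and 3 lower, against 23.2% and 12.5%. Of names in the range of the 10 genes, 39.5% were higher and 29.8% lower under vehicle. Under SD 41.7% of them were higher and 29.2% lower. Among the highest of them, Fyb, an adaptor protein of T cells and myeloid cells, had 1.04 and 0.902 RPKM in the WT pair and 5.77 and 6.68 RPKM in the G93A pair. Vav1, an exchange factor of blood cells generally, had 0.722 and 0.760 RPKM in the WT pair and 3.63 and 3.74 RPKM in the G93A pair. Neither is particular to T cells. Rasgrp1, another exchange factor, had 2.15 and 2.68 RPKM in the WT pair and 1.80 and 2.23 RPKM in the G93A pair, so that the genotypes overlapped. Cd247, the zeta chain of the receptor complex, had 1.84 and 1.89 RPKM in the WT pair and 1.79 and 1.66 RPKM in the G93A pair, within 1.5-fold in all 4 comparisons and far above the CD3 chains per kilobase in every library. Lck, the kinase bound to CD4 and CD8, had 0.164 and 0.398 RPKM in the WT pair and 0.413 and 0.394 RPKM in the G93A pair, so that WT vehicle alone was low. Zap70, the kinase that binds the phosphorylated chains, had 0.264 and 0.302 RPKM in the WT pair and 0.340 and 0.209 RPKM in the G93A pair. With SD in WT, 5 of the 28 were higher and 8 lower, against 7.18% and 8.55% of all names and 30.2% and 34.5% of names in the range of the 10 genes. With SD in G93A, 8 were higher and 6 lower, against 8.71% and 7.31% of all names and 33.7% and 29.4% of names in that range.

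Of 28 cytotoxic granule and NK cell genes, 22 were in the table. Under vehicle 13 of these were higher in G93A by at least 1.5-fold and 3 were lower, against 20.3% and 10.3% of all names and 39.5% and 29.8% of names in the range of the 10 genes. Under SD 11 were higher and 5 lower, against 23.2% and 12.5% of all names and 41.7% and 29.2% of names in that range. Prf1, which encodes the pore-forming perforin, had 0.0132 and 0.0127 RPKM in the WT pair and 0.0192 and 0 RPKM in the G93A pair, or at most 1.81 estimated fragments. The killing genes Prf1 and Gzmb were therefore near 0 in all libraries. This does not hold for every granzyme of the list. Gzmm, named after its values were seen, had 0.525 and 0.491 RPKM in the WT pair and 0.514 and 0.576 RPKM in the G93A pair. It lay within 1.5-fold in all 4 comparisons. The highest of the 22 were Fcgr3 and Srgn, which myeloid cells also express. Fcgr3, an IgG receptor, had 3.96 and 3.54 RPKM in the WT pair and 38.3 and 37.4 RPKM in the G93A pair. Ccl5, a chemokine of activated T and NK cells and of other cells, was better covered, with 0.460 and 0.192 RPKM in the WT pair and 2.31 and 2.82 RPKM in the G93A pair, or 9.01 and 3.91 against 46.8 and 58.0 estimated fragments. Hcst, the signalling adaptor of the NKG2D receptor, had 0.0411 and 0.0809 RPKM in the WT pair and 1.09 and 1.60 RPKM in the G93A pair. For Ccl5 and Hcst the G93A libraries were above the WT libraries. Klrk1, which encodes the NKG2D receptor itself, is named after its values were seen. It was listed at 0 except in G93A vehicle, where it had 0.0211 RPKM or 0.915 estimated fragments. With SD in WT, 6 of the 22 were higher and 4 lower, against 7.18% and 8.55% of all names and 30.2% and 34.5% of names in that range. With SD in G93A, 4 were higher and 7 lower, against 8.71% and 7.31% of all names and 33.7% and 29.4% of names in that range. Of 24 T cell transcription factors and cytokine receptors, 11 were higher and 0 lower in G93A under vehicle, against 20.3% and 10.3% of all names. Under SD 13 of the 24 were higher and 3 lower, against 23.2% and 12.5% of all names. In the range of the 10 genes, 39.5% and 29.8% of names passed under vehicle and 41.7% and 29.2% under SD. With SD in WT, 3 of the 24 were higher and 4 lower, against 7.18% and 8.55% of all names. With SD in G93A, 8 were higher and 4 lower, against 8.71% and 7.31% of all names. Both G93A libraries were at least 1.5-fold above both WT libraries for 10 of the 28 receptor pathway genes, 7 of the 22 cytotoxic and NK cell genes and 7 of these 24 genes, where 13.1% of all names were. S1pr1, the highest of the 24, is a receptor also found on endothelial cells and astrocytes and had 35.5 to 40.2 RPKM.

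Markers of other cells differed along with these comparisons, and their part in the results for the 10 genes was not tested. Of 12 microglial genes, 11 were higher in G93A by at least 1.5-fold under vehicle and 11 under SD, with none at 0, against 20.3% and 23.2% of all names. Their summed level was 151 and 143 RPKM in the WT pair and 787 and 848 RPKM in the G93A pair. Ptprc, which encodes the CD45 antigen of all leukocytes including microglia, had 0.909 and 1.02 RPKM in the WT pair and 7.40 and 8.91 RPKM in the G93A pair. The CD3 chains together had 0.334 RPKM in G93A + SD. Between SD and vehicle no microglial gene was 1.5-fold apart in WT and 1 was higher in G93A. Red cell genes differed between the WT libraries. In WT, all 5 erythroid genes in the table were higher with SD by at least 1.5-fold, against 7.18% of all names. Under vehicle 4 of them were higher in G93A, against 20.3% of all names. Their summed levels were 34.4 and 69.3 RPKM in the WT pair and 51.7 and 55.7 RPKM in the G93A pair. Hba-a1, an alpha globin, had 10.2 and 20.8 RPKM in the WT pair, where reads could be split with its near-identical copy Hba-a2, and none of the erythroid genes was 1.5-fold apart between the G93A libraries or between the SD libraries.

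Lists of other leukocytes were compared in the same way, and the shares of all names given above apply to their counts too. Of 8 B cell genes, 5 were higher and 2 lower in G93A under vehicle, and 4 were higher and 1 lower under SD. Their summed level was 0.227 and 0.376 RPKM in the WT pair and 4.51 and 3.93 RPKM in the G93A pair. Most of it in G93A was Cd22, which had 3.90 RPKM under vehicle. Cd22 is an inhibitory receptor of B cells that microglia can also express. Cd79b and Cd79a, the signalling chains of the B cell receptor, differed in order. Cd79b had 0.0325 and 0.122 RPKM in the WT pair and 0.396 and 0.223 RPKM in the G93A pair, so that both G93A libraries were above both WT libraries. Cd79a had 0.0307 and 0.0737 RPKM in the WT pair and 0.112 and 0.0264 RPKM in the G93A pair, and its lowest value was in G93A + SD. Pax5, the transcription factor that commits cells to the B lineage, had 0.105 and 0.0837 RPKM in the WT pair and 0.0327 and 0.0629 RPKM in the G93A pair, with both G93A libraries below both WT libraries. Of 8 neutrophil genes, 6 were higher in G93A by at least 1.5-fold under vehicle, where 20.3% of all names and 39.5% of names in the range of the 10 genes were. Within G93A, 6 were lower with SD, against 7.31% of all names and 29.4% of names in that range. S100a9, a calcium-binding protein of neutrophils, had 0.328 and 0.262 RPKM in the WT pair and 1.27 and 0.342 RPKM in the G93A pair, so that G93A vehicle alone was high. None of the 8 neutrophil genes was higher by at least 1.5-fold with SD in G93A, and under SD 3 were higher and 1 lower in G93A than in WT. S100a8, its partner, had 0.583 and 0.525 RPKM in the WT pair and 0.938 and 0.364 RPKM in the G93A pair. Of 8 dendritic cell genes, 4 were higher and 2 lower in G93A under vehicle, and 3 were higher and 2 lower under SD. Itgax, which activated microglia also express, had 0.0925 and 0.0923 RPKM in the WT pair and 13.2 and 15.5 RPKM in the G93A pair. Flt3, a growth factor receptor of dendritic cells and their precursors, went the other way, with 5.72 and 5.67 RPKM in the WT pair and 3.74 and 2.64 RPKM in the G93A pair. Zbtb46, a transcription factor of classical dendritic cells, lay between 0.966 and 1.22 RPKM in all 4 libraries. The 4 mast cell genes in the table summed to at most 0.0431 RPKM, and all 4 were listed at 0 in WT + SD.

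**Figure D4:**
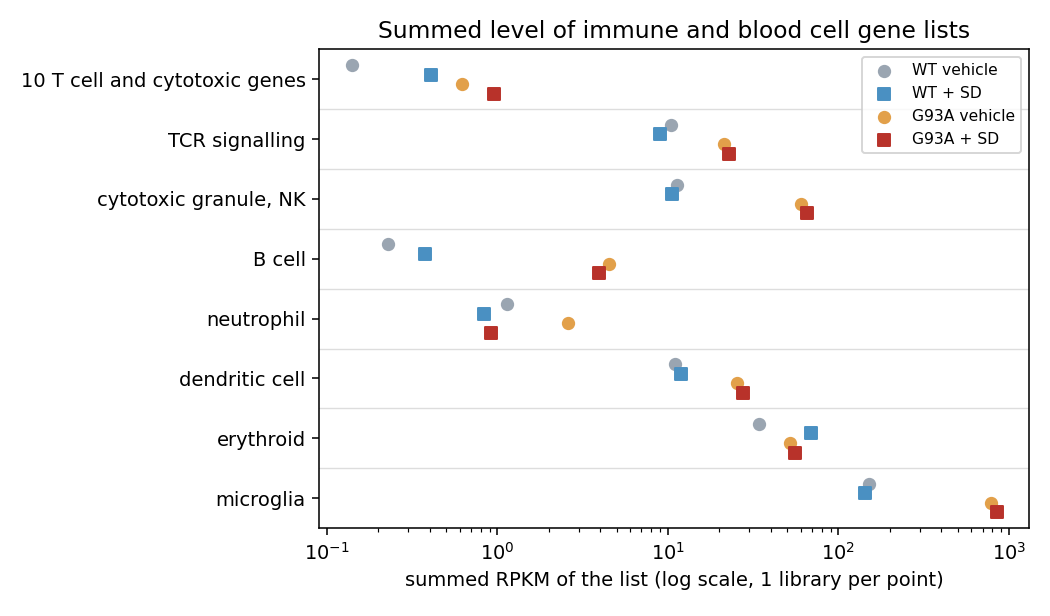
Summed RPKM of the 10 genes and of 7 other gene lists in each library, on a log axis with 1 point per library. The 10 genes run from 0.140 to 0.959 RPKM in the order of the legend, while microglial genes fall into 2 levels by genotype and neutrophil genes are highest in G93A vehicle.

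The order of the 4 libraries shown by the 10 genes on average was also looked for among better measured genes. This average rose from WT vehicle over WT + SD and G93A vehicle to G93A + SD. Of the 10 genes, only Cd3e and Nkg7 followed that order one by one. Profiles were centred log2 values over the 4 libraries with a pseudocount of 0.1 RPKM, and 13984 names with a mean of at least 0.5 RPKM outside all lists were compared by Euclidean distance. The 5 nearest were Nubpl, Pigx, Anp32a, 1810010H24Rik and A930003O13Rik, at distances between 0.0093 and 0.055. Nubpl had 0.792 and 0.978 RPKM in the WT pair and 1.12 and 1.34 RPKM in the G93A pair. The pseudocount shrinks the differences of low genes most, so a near profile need not share the fold of the 10 genes. As many as 42 names lay within a distance of 0.1, and a likeness over 4 libraries is a description only.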

How the data were processed

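RNA of 4 spinal cord libraries, 1 per condition, was grouped by the sample titles. The authors deposited 1 table with 23750 RefSeq transcript rows, and its values were taken as RPKM, since neither header nor methods name the unit. Per the methods, STAR alignment of 53 bp polyA reads (GRCm38) and HTSeq counting came first; the step to these values is not stated. Ratio columns deposited by the authors were not used. Rows of 1 name were averaged. A name differing at least 1.5-fold, without pseudocount, was called, and no test between single libraries was possible. Transcript lengths were those of GENCODE M21, found for 97.0% of rows. The step behind estimated fragments was the commonest value of RPKM times length, and 31.5% to 33.4% of low rows lay within 0.05 of a whole multiple of it. Genes named were the 10, at most 4 of highest mean per list with Prf1, Cd247, Lck, Zap70 and Ptprc, the 5 nearest profiles and the tissue check (Chat, Gfap, Mbp, Snap25); others are said to be chosen after their values were seen. Members and lists were chosen with earlier results of these data known. Alternatives were pseudocounts, scaling, thresholds and filters. Calculations, tested on simulated data, ran in Python 3.11.15 with pandas 2.3.3, numpy 2.4.6 and, for figures, matplotlib 3.10.9.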

Additional observations from a re-analysis of the deposited data

Results flagged for a closer look

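Cd2 stood out because SD and vehicle differed in opposite directions in the genotypes: in G93A it was 1.97-fold higher with SD, whereas in WT it was above 0 with vehicle and listed at 0 with SD. Gzma stood out because the genotypes differed in opposite directions under vehicle and under SD: under vehicle it was 20.1-fold higher in G93A, and under SD the G93A level was 0.547 times the WT level. The difference was not tested in either case, since each condition has 1 library, and Cd2 and Gzma had at most 4.03 and 2.72 estimated fragments in any library.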

How the results depend on the processing

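No paired analysis was possible because each condition has 1 library. Counts are of the 10 genes and are given in the order G93A against WT under vehicle, the same under SD, SD against vehicle in WT, and the same in G93A. As reported, 8, 7, 6 and 5 were higher and 1, 2, 2 and 0 lower. A pseudocount of 0.1 RPKM left 4, 3, 4 and 1 higher and 0, 0, 1 and 0 lower. Of all names, 14.4%, 17.1%, 2.25% and 2.97% were then higher and 5.31%, 7.82%, 2.8% and 2.55% lower. A pseudocount of 1 RPKM left 0 higher and 0 lower in each. Of all names, 8.31%, 10.4%, 0.268% and 0.6% were then higher and 1.9%, 4.19%, 0.444% and 0.455% lower. With 1 RPKM, 0 genes had both G93A libraries at least 1.5-fold above both WT libraries. Only Nkg7 has a mean of at least 0.1 RPKM, and with that filter 1, 1, 1 and 0 were higher and 0 lower in each. Of the names kept, 17.2%, 20%, 3.17% and 3.88% were higher and 6.72%, 9.83%, 4.18% and 3.17% lower. Nkg7 passes that filter through its G93A values, so the filtered counts between genotypes are no check on them. With names above 0 in both libraries, 4, 5, 2 and 5 were higher and 0, 1, 0 and 0 lower. Of names, 17%, 19.7%, 4.56% and 5.97% were then higher and 7.85%, 10.4%, 5.88% and 5% lower. At 2-fold, 6, 5, 6 and 2 were higher and 1, 1, 2 and 0 lower. Of all names, 13.4%, 15.5%, 4.96% and 5.45% were higher at 2-fold and 5.47%, 6.05%, 5.71% and 4.97% lower. With at least 10 estimated fragments over the libraries compared, chosen after seeing the data, 0, 4, 0 and 4 genes remained for the comparison. Of these, 0, 3, 0 and 2 were higher and 0 lower in each. Of the names kept, 17.1%, 20.1%, 2.85% and 4.04% were higher and 6.59%, 9.76%, 3.65% and 3.19% lower. A gene can pass through the library where it is high, so these counts do not support a direction. Both G93A libraries were above both WT libraries by 1.5-fold for 4 genes, for 1 with a pseudocount of 0.1 RPKM, for 2 at 2-fold and for 1 with the filter on the mean, where 13.1%, 10.4%, 8.19% and 12.9% of names were. The medians of 0.34, 0.36, 0.31 and 0.29 were 0.041, 0.065, 0.036 and 0.044 with a pseudocount of 1 RPKM, 1.55, 0.86, 1.65 and 0.52 with 0.01 RPKM, 0.33, 0.33, 0.32 and 0.28 with median-ratio scaling, and 1.55, 1.22, 0.72 and 0.39 for Nkg7 alone. None of these settings reversed a median. Of the 17 fold changes of single genes past 1.5-fold, with both libraries above 0, 11 fell below it with a pseudocount of 0.1 RPKM, all 17 with 1 RPKM and 0 with scaling. Scaling by median ratios changed no count. Depth limits every value, since no gene of the 10 exceeded 9.64 estimated fragments in a library.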

Other observations

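Some lymphocyte genes of the lists were better covered than the 10 genes and are named here after their values were seen. Cd5, an inhibitory coreceptor of T cells and some B cells, had 0.00656 and 0.00632 RPKM in the WT pair and 0.169 and 0.130 RPKM in the G93A pair, or 0.5, 0.5, 13.3 and 10.4 estimated fragments. Cd28, the costimulatory receptor of T cells, had 0.0283 and 0.0182 RPKM in the WT pair and 0.264 and 0.442 RPKM in the G93A pair, or 4.53, 3.02, 43.5 and 74.2 estimated fragments. Klrb1c, which encodes the NK1.1 antigen, had 0.0202 and 0.0149 RPKM in the WT pair and 0.188 and 0.561 RPKM in the G93A pair, or 1.59, 1.22, 15.3 and 46.3 estimated fragments. Runx3, a transcription factor of CD8+ T cells and NK cells, had 0.0140 and 0.00672 RPKM in the WT pair and 0.0808 and 0.148 RPKM in the G93A pair. In each of these 4 genes both G93A libraries were at least 1.5-fold above both WT libraries, which is a description, since they were picked for being well covered in G93A. Skap1, an adaptor of T cell receptor signalling, went another way, with 2.27 and 0.440 RPKM in the WT pair and 1.44 and 0.955 RPKM in the G93A pair.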
